A study of Mus musculus with 18 samples.

Results

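The 8 genes described here make, sense or export cholesterol and its oxidised derivatives, the oxysterols: Ch25h, Hmgcs1, Idi1, Sqle, Insig1, Srebf2, Nr1h2 and Abca1. They were found by symbol among the 21638 genes of the deposited count table, and all 8 were among the 17094 genes kept for testing because at least 3 libraries held at least 10 counts. Ch25h, the lead gene, was chosen by its level in occluded against sham libraries of these same data, so its values in that comparison are a description, with no test. The other 7 were listed beside it with results of these data known, and their occlusion values are given in the same way.

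The RNA came from endothelial cells of the adult mouse cortex, sorted as CD31+ CD41- CD45- cells on day 7 after surgery and sequenced as ultra-low-input messenger RNA libraries. Middle cerebral artery occlusion (MCAO) is a surgical model of ischaemic stroke, and ipsilateral cells came from the occluded hemisphere. The 18 libraries formed 6 groups of 3: sham ipsilateral, sham contralateral, MCAO ipsilateral and MCAO contralateral, all labelled wild type, and ipsilateral cells of occluded Hdac2 ECKO mice and of occluded Ezh2 ECKO mice. ECKO denotes an endothelial deletion made with floxed alleles and Cdh5CreERT2, a tamoxifen-inducible recombinase under the promoter of the endothelial cadherin Cdh5. All 6 groups, controls included, had received tamoxifen at 75 mg per kg, which the series describes as 5 daily doses. Whether the wild-type mice carried the recombinase is not given in the sources used here. Neither deletion had a sham group or a contralateral group here. Hdac2 is a histone deacetylase and Ezh2 is the methyltransferase of Polycomb repressive complex 2. The labels gave no batch and did not say whether libraries with the same number came from one mouse, so p-values measure only the spread between these libraries.

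As background, cells build cholesterol from acetyl-CoA through the mevalonate pathway, in which Hmgcs1 makes HMG-CoA, Idi1 isomerises isopentenyl pyrophosphate and Sqle epoxidises squalene. The transcription factor SREBP2, encoded by Srebf2, switches on these enzymes when membrane sterols are low, and Insig1, itself an SREBP2 target, holds the SREBP2 carrier Scap in the endoplasmic reticulum when sterols are high. Ch25h hydroxylates cholesterol to 25-hydroxycholesterol, which restrains SREBP2 processing and is a ligand of the liver X receptors, of which Nr1h2 encodes LXR-beta. Abca1, an LXR target, exports cholesterol to lipid-poor apolipoproteins. Ch25h is known as an interferon- and inflammation-induced gene of macrophages, and it is also expressed in endothelium.

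Sequences upstream of the start of transcription were available for 7 of the 8 genes in RefSeq (assembly GRCm38.p6, windows of 250 bases before the start), all except Sqle. The stretches shown are those of Ch25h as the lead gene, of Insig1 and Nr1h2 because the deletion results turn on them, and of Hmgcs1 and Srebf2 because they carry the classic sterol element. Each reads 5′ to 3′ on the strand of the gene, bases that GENCODE M21 counts as transcribed were left off, and capitals mark matches to the motifs named after the sequences.
Ch25h (chr19:34475165-34475398, minus strand): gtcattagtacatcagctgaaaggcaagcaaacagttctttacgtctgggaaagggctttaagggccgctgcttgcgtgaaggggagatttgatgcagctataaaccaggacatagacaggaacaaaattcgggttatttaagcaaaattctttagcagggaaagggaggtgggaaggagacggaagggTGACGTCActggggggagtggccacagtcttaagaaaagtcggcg
Insig1 (chr5:28071162-28071362, plus strand): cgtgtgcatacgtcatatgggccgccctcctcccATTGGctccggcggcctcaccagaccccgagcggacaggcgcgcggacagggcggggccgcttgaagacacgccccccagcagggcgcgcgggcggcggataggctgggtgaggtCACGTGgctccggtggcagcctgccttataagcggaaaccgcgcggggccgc
Nr1h2 (chr7:44553966-44554215, minus strand): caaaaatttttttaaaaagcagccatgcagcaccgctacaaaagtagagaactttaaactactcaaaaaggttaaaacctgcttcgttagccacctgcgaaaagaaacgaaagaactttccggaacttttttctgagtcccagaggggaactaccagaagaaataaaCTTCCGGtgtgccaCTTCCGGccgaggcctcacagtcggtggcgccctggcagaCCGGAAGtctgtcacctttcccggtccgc
Hmgcs1 (chr13:119690101-119690350, plus strand): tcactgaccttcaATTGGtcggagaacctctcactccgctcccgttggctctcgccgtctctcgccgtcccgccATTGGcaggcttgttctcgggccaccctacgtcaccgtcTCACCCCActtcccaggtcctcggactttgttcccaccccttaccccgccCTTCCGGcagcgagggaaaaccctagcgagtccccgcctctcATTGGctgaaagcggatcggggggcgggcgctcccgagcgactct
Srebf2 (chr15:82147019-82147180, plus strand): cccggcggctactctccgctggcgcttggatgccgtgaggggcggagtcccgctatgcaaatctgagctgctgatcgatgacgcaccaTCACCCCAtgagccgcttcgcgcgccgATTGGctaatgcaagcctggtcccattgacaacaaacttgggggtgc
Both strands of all 7 windows were searched for 6 short motifs, and positions count bases upstream of the RefSeq start. The sterol regulatory element core TCACCCCA was found in Hmgcs1 (bases 137 to 130) and Srebf2 (162 to 155), against 1.34% of all 32851 RefSeq windows of this length. The CCAAT box, CCAAT, was found in Hmgcs1 (3 times), Idi1 (2 times), Insig1 and Srebf2, always as its reverse complement, and in 33.8% of all windows. Both Idi1 matches (45 to 41 and 14 to 10) lie within the 105 bases of its window that GENCODE M21 counts as transcribed. The E-box CACGTG stood in Insig1 (101 to 96) and Abca1 (147 to 142), and in 6.02% of all windows. The window of Ch25h held the cyclic AMP response element TGACGTCA (61 to 54), found in 1.55% of all windows, and none of the other motifs. The ETS core CTTCCGG occurred 3 times in Nr1h2 and 1 time in Hmgcs1, against 6.91% of all windows. The AP-1 site TGACTCA, present in 4.46% of all windows, was in none of the 7. A match describes letters only, and no binding was measured in these libraries.

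**Figure D1:**
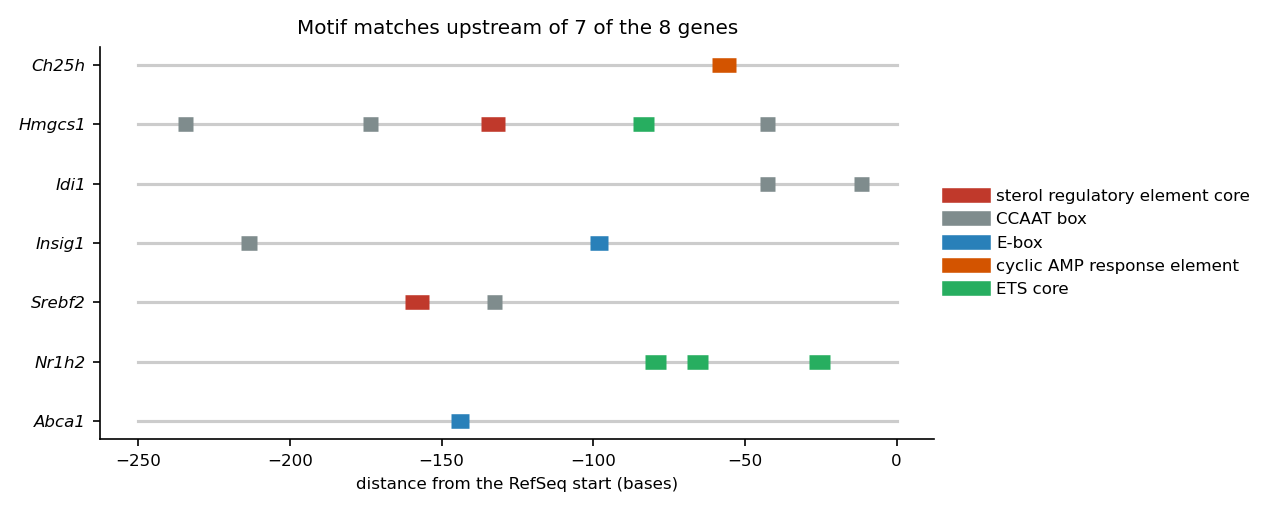
Motif matches in the 250 bases upstream of the RefSeq start of 7 genes; the x axis is the distance from the start in bases, and each coloured block is a match on either strand. Hmgcs1 and Srebf2 hold the sterol regulatory element core, Ch25h holds only the cyclic AMP response element, and Nr1h2 holds 3 ETS cores. Both CCAAT matches of Idi1 lie in bases that GENCODE M21 counts as transcribed.

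Library totals ran from 25791401 to 57576255 counts, so that 3 counts correspond to 0.0619 to 0.101 CPM (the count as a share of the scaled library total, times 1e6), and every member had at least 76 counts in every library. Marker sums and the diffuse background are given here and below as CPM of the unscaled library total, red cell counts included. They therefore also depend on the red cell share of a library. The summed level of 6 endothelial markers was 5280 to 11000 CPM in all 18 libraries, against 1.48 to 23.5 CPM for 8 microglial and macrophage markers and 0.198 to 24.3 CPM for 4 leukocyte markers. The sum of 4 red cell markers was 93.2 to 653 CPM in Ezh2 ECKO libraries, against 24400 to 199000 CPM in all others. Diffuse background, read from 1464 olfactory and vomeronasal receptor genes, was highest in Ezh2 ECKO replicate 2 (2080 CPM) and MCAO contralateral replicate 1 (1880 CPM), against 152 to 714 CPM elsewhere. Neither targeted gene was clearly lower in the libraries labelled as its deletion than in MCAO ipsilateral cells. Hdac2 was at 76.8 ± 16.8 CPM (SD, n = 3) in Hdac2 ECKO and 82.9 ± 14.0 CPM (SD, n = 3) in MCAO ipsilateral, with overlapping libraries and a log2 difference of -0.11 ± 0.32 (SE). Ezh2 was at 13.4 ± 5.76 CPM in Ezh2 ECKO against 6.44 ± 1.77 CPM, higher without overlap, as for 13.6% of all genes. That log2 difference was 1.05 ± 0.86 (adjusted p = 0.485, edgeR) and was not called. Compared with Ezh2 ECKO, Hdac2 was lower in every Hdac2 ECKO library (-0.85 ± 0.32, adjusted p = 0.315, edgeR), a separation that 5.26% of all genes met. Hdac2 in Ezh2 ECKO, at 118 to 156 CPM, was itself above MCAO ipsilateral cells at 68.2 to 96.1 CPM (0.74 ± 0.32, adjusted p = 0.216, edgeR). That separation from Ezh2 ECKO therefore does not show a loss of Hdac2 in Hdac2 ECKO. Gene-level counts do not resolve the floxed exons, so they check the deletion only in part.

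Per kilobase of the deposited feature length, the mean level over the 18 libraries was 26.1 CPM per kilobase for Ch25h, a rank set by the occluded groups. In sham Ch25h was at 6.50 and 7.34 CPM per kilobase on the 2 sides, below Idi1 (11.4 and 18.3) and Hmgcs1 (9.90 and 11.5). Over the 18 libraries Idi1 was at 15.3, Hmgcs1 at 9.44, Abca1 at 8.54, Insig1 at 5.54, Nr1h2 at 4.59, Srebf2 at 1.80 and Sqle at 1.64 CPM per kilobase. Ch25h also varied most, by 25.0 times between its lowest and highest library (4.72 to 118 CPM), and Hmgcs1 least, by 2.18 times (30.2 to 66.0 CPM). Ch25h has a single exon on chromosome 19 (GRCm38, 34473778 to 34475164, minus strand), which shares 159 bases with the opposite-strand gene Gm26902. Hmgcs1 and Idi1 on chromosome 13 share 557 and 323 exon bases with Gm48342 and Gm48574. Since the strand setting of the counting is not given in the sources used here, reads from these partners could not be told apart. Insig1 lies on chromosome 5 (28071363 to 28078662, plus strand), Nr1h2 on chromosome 7 (44549616 to 44553951, minus strand) and Abca1 on chromosome 4 (53030787 to 53159895, minus strand).

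**Figure D2:**
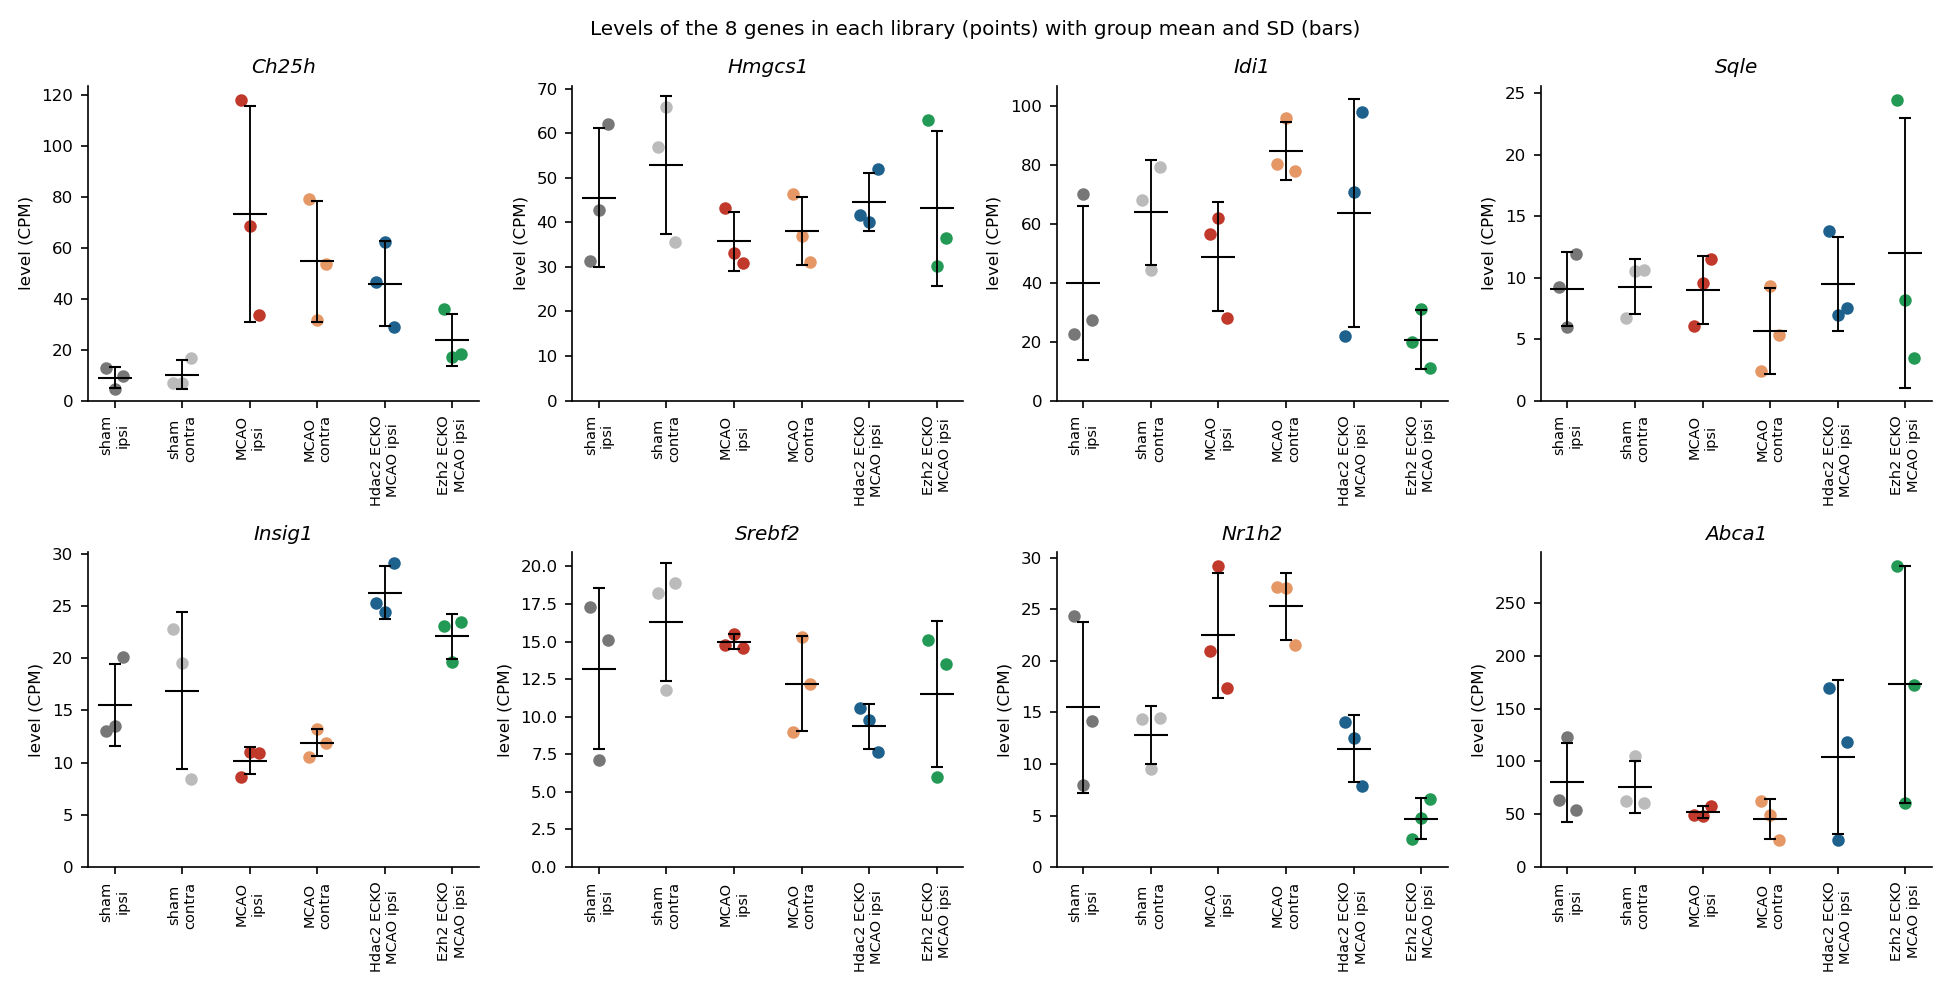
Level of each of the 8 genes in CPM (y axis, from 0, its own scale per gene) in the 6 groups; points are libraries, horizontal bars are group means and error bars are SD (n = 3). The 6 sham libraries lie between 4.72 and 16.9 CPM for Ch25h, below all 6 MCAO libraries at 31.6 to 118 CPM.

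Ch25h stood higher in every occluded library than in every sham library. In sham ipsilateral cells its level was 12.7, 4.72 and 9.63 CPM, and in sham contralateral cells 6.90, 6.79 and 16.9 CPM. In MCAO ipsilateral cells it was 118, 68.5 and 33.5 CPM, and in MCAO contralateral cells 79.3, 31.6 and 53.6 CPM. The lowest occluded library, on the contralateral side, was thus above the highest sham library, also contralateral. Over both sides the mean was 9.60 ± 4.50 CPM in sham (SD, n = 6) and 64.1 ± 32.4 CPM after MCAO (SD, n = 6), a ratio of 6.67. Here n counts libraries, and the 2 sides may come from the same mice. The fitted log2 difference was 2.73 ± 0.39 (SE) over both sides, 3.02 ± 0.57 ipsilaterally and 2.43 ± 0.55 contralaterally. These values chose the gene, so no test is given for them. Of all 17094 genes, 0.152% were called in the comparison over both sides (an adjusted p-value under 0.05 by edgeR's quasi-likelihood F-test), and 0.421% were higher in all 6 occluded than in all 6 sham libraries. On each side alone 0% were called. With each library left out in turn, the log2 difference over both sides lay between 2.46 and 3.02.

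For Ch25h, no difference between the hemispheres was detected. MCAO ipsilateral cells had 73.3 ± 42.5 CPM (SD, n = 3) and MCAO contralateral cells 54.8 ± 23.8 CPM, with overlapping libraries and a log2 difference of 0.42 ± 0.52 (SE, adjusted p = 1.00, edgeR). Sham ipsilateral and sham contralateral cells, at 9.02 ± 4.03 and 10.2 ± 5.78 CPM, differed by -0.18 ± 0.53 (adjusted p = 1.00, edgeR). The occlusion effect on the ipsilateral side minus that on the contralateral side was 0.60 ± 0.74 on the log2 scale (adjusted p = 0.941, edgeR), and this value turned to -0.92 ± 0.84 when trends with GC content and length were removed. The median of all genes moved from -0.08 to -0.32 with that removal. None of the 8 genes was called in any of these 3 tests, in which 0% of all genes were called. Idi1 was the member with the clearest split by side: its MCAO ipsilateral libraries, at 56.6, 62.1 and 27.9 CPM, all lay below the MCAO contralateral ones at 80.4, 96.0 and 77.9 CPM, as for 1.88% of all genes. That log2 difference was -0.79 ± 0.51 (adjusted p = 1.00, edgeR), and the sham sides differed in the same direction by -0.68 ± 0.51.

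From sham to wild-type MCAO, microglial and macrophage markers, at low level, moved in the same direction as Ch25h, which did not extend to all Hdac2 ECKO libraries. In Hdac2 ECKO replicates 1 to 3 these markers summed to 8.83, 3.55 and 1.48 CPM, with Ch25h at 46.7, 62.3 and 28.8 CPM. In Ezh2 ECKO they summed to 9.41, 8.65 and 16.6 CPM, with Ch25h at 35.9, 17.3 and 18.3 CPM. The microglial and macrophage sum was 3.12 to 6.88 CPM in the 6 sham libraries, 8.46, 20 and 23.5 CPM in MCAO ipsilateral cells and 20.4, 8.09 and 6.28 CPM in MCAO contralateral cells. All 8 markers had counts in MCAO cells of either side and in sham ipsilateral cells, while C1qa was at 0 in all 3 sham contralateral libraries. Markers at 0 in at least 1 library numbered 5 in sham ipsilateral and 6 in sham contralateral cells. They numbered 3 in MCAO ipsilateral and 2 in MCAO contralateral cells. The library with the highest Ch25h level, MCAO ipsilateral replicate 1 at 118 CPM, had the lowest microglial sum of its group (8.46 CPM). On the contralateral side the reverse held: MCAO replicate 1 had both the highest Ch25h level (79.3 CPM) and the highest microglial sum (20.4 CPM) of its group. Over the 18 libraries the correlation of the 2 quantities on the log2 scale was 0.42. Other marker sums had correlations with Ch25h of -0.63 (leukocyte), -0.56 (endothelial) and -0.51 (pericyte and smooth muscle). The endothelial sum was 9490 to 10500 CPM in sham ipsilateral and 6540 to 7750 CPM in MCAO ipsilateral cells, without overlap, and it overlapped on the contralateral side. Neuron markers were at 128 to 173 CPM in sham contralateral and 216 to 236 CPM in MCAO contralateral cells. Pericyte and smooth muscle markers were at 42.4 to 102 CPM in sham and 10.1 to 61.0 CPM after MCAO. In bulk RNA, fewer cells of a type and less RNA per cell cannot be told apart. The part of these cells in the level of Ch25h was not tested.

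None of the 3 synthesis enzymes separated the sham from the MCAO libraries. Hmgcs1 ranged from 31.4 to 66.0 CPM in the 6 sham libraries (median 49.9) and from 30.8 to 46.3 CPM in the 6 MCAO libraries (median 35.1), with a fitted log2 difference over both sides of -0.41 ± 0.27 (SE). Idi1 ranged from 22.6 to 79.3 CPM in sham (median 56.3) and from 27.9 to 96.0 CPM after MCAO (median 70.0), a log2 difference of 0.35 ± 0.36. Sqle stood at 5.96 to 11.9 CPM in sham (median 9.86) and 2.39 to 11.5 CPM after MCAO (median 7.67), a log2 difference of -0.35 ± 0.48. For all 3 enzymes the sham and MCAO ranges overlapped. Hmgcs1 varied within a narrow band, while Idi1 and Sqle varied several-fold within a group.

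The sterol sensors and the efflux genes spread in both directions after occlusion. Insig1 was at 8.45 to 22.8 CPM in sham (median 16.5) and at 8.66 to 13.2 CPM after MCAO (median 11.0), a log2 difference of -0.56 ± 0.31 (SE). The fitted value was smallest for Srebf2, with a sham median of 16.2 and an MCAO median of 14.7 CPM, a log2 difference of -0.12 ± 0.35. Nr1h2, the receptor for oxysterols, was at 7.96 to 24.4 CPM in sham (median 14.3) and at 17.4 to 29.2 CPM after MCAO (median 24.3), a log2 difference of 0.76 ± 0.35. Its contralateral groups did not overlap, with sham at 9.55 to 14.5 CPM and MCAO at 21.5 to 27.2 CPM, as for 3.65% of all genes in that direction. Insig1 was lower without overlap ipsilaterally, at 8.66 to 11.0 CPM against 13.0 to 20.1 CPM in sham, as for 14.4% of all genes. Abca1, the LXR target, was at 54.0 to 123 CPM in sham (median 63.0) and 25.2 to 62.1 CPM after MCAO (median 49.6), a log2 difference of -0.68 ± 0.39. Ch25h and Abca1 therefore had fitted differences of opposite sign. Of the 8 members, 3 had a positive and 5 a negative value. Over both sides the median log2 difference of the 8 members was -0.24, against 0.06 over all tested genes.

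**Figure D3:**
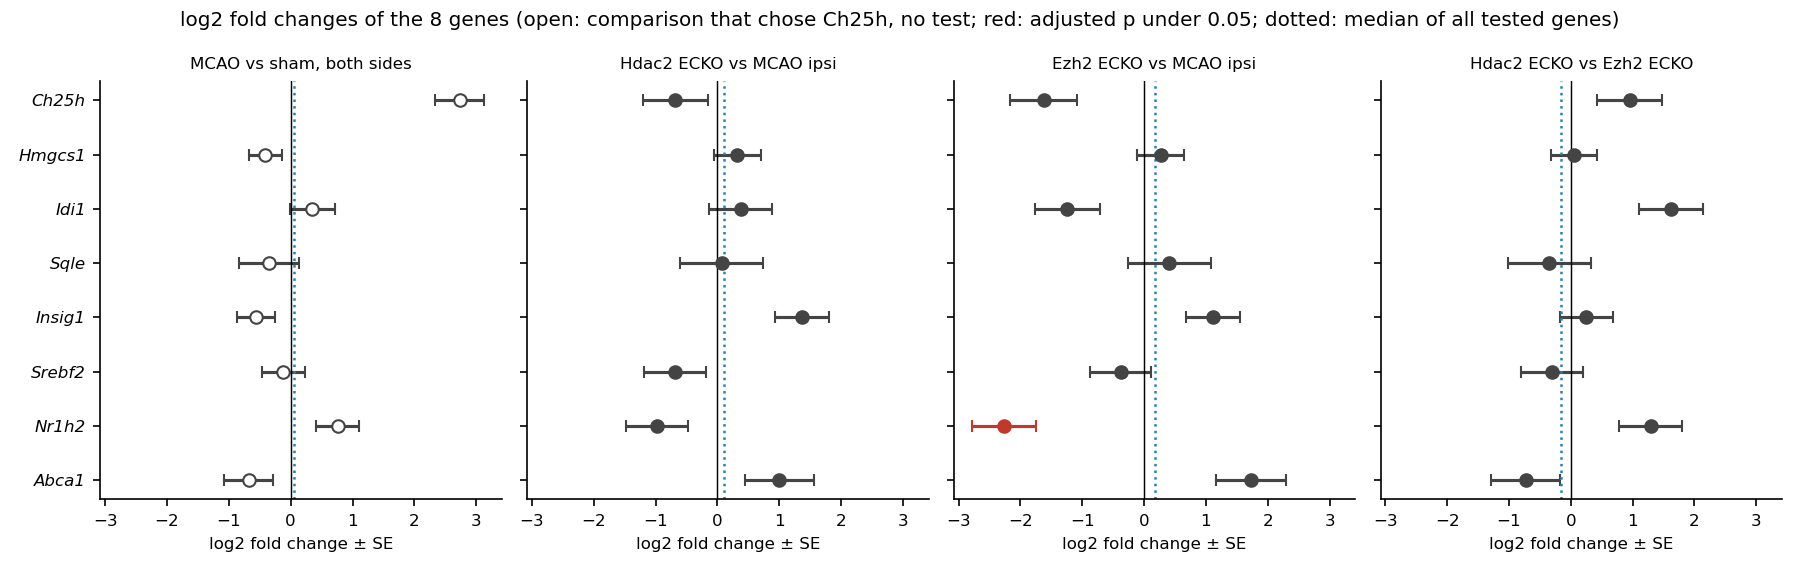
Fitted log2 fold change (x axis, error bars SE) of the 8 genes in 4 comparisons; open points mark the comparison that chose Ch25h, red marks an adjusted p-value under 0.05, and the dotted line is the median of all tested genes. Ch25h lies at 2.73 in the occlusion panel, and Nr1h2 at -2.26 in the Ezh2 ECKO panel is the single member called there.

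In the libraries labelled Ezh2 ECKO, Nr1h2 was lower than in MCAO ipsilateral cells. Its level was 2.70, 4.78 and 6.63 CPM in Ezh2 ECKO against 21.0, 29.2 and 17.4 CPM in MCAO ipsilateral cells. Each Ezh2 ECKO library was below each MCAO ipsilateral library, and also below the lowest sham library of either side (7.96 CPM), which 4.35% of all genes were. The log2 difference was -2.26 ± 0.52 (SE, adjusted p = 0.0379, edgeR), while all tested genes had a median of 0.17. Nr1h2 was 1 of 8 members called, when 1.46% of all genes were called in this comparison. Its longest GENCODE M21 transcript has a GC content of 60.6%, the highest of the 8 genes. Over 16965 genes the log2 difference in this comparison went with GC content, read in the same way, at a Spearman's rho of -0.47. With the trends on GC content and length removed, an adjustment added after the values were seen, the log2 difference was -0.84 ± 0.54 (adjusted p = 0.397, edgeR) and the call was lost. The median of all tested genes rose to 0.53 in that setting, so part of the change in Nr1h2 is shared by all genes. The call was also lost when any single Ezh2 ECKO library, or MCAO ipsilateral replicate 1 or 2, was left out, with log2 differences from -2.62 to -1.98. Over all 15 alternatives its adjusted p ran from 0.000854 to 0.397, and 4 kept the call. Marker sums also set Ezh2 ECKO apart from MCAO ipsilateral cells without overlap: endothelial 8180 to 11000 against 6540 to 7750 CPM, neuron 45.9 to 83.9 against 129 to 160 CPM, and red cell 93.2 to 653 against 37800 to 57800 CPM. As shares of the unscaled totals, these sums also depend on the red cell counts and the scaling. The part of these cell types in the values of this comparison was not tested. Nr1h2 was listed with these results in view, so the call adds no independent support to its choice.

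The other members separated into higher and lower values in Ezh2 ECKO, none of them called. Insig1 was at 23.1, 19.6 and 23.5 CPM against 8.66, 11.0 and 10.9 CPM in MCAO ipsilateral cells, so that the groups did not overlap (log2 difference 1.11 ± 0.44, SE, adjusted p = 0.173, edgeR). Abca1 was at 285, 60.7 and 172 CPM against 49.6, 48.4 and 58.3 CPM, also without overlap but with 1 library close to the controls (1.73 ± 0.57, adjusted p = 0.111, edgeR). The Abca1 value fell to 1.16 ± 0.59 without the highest library, Ezh2 ECKO replicate 1. Ch25h was at 35.9, 17.3 and 18.3 CPM, overlapping the MCAO ipsilateral libraries only through its highest value (-1.62 ± 0.54, adjusted p = 0.112, edgeR). That value was -0.55 ± 0.60 with the GC and length trends removed, where the median of all genes was 0.53 in place of 0.17. It was -1.10 ± 0.57 without MCAO ipsilateral replicate 1. Because these same MCAO ipsilateral libraries helped to choose Ch25h as high, a lower level in any other group compared with them is not an independent observation. Idi1 was at 19.8, 31.1 and 11.2 CPM against 56.6, 62.1 and 27.9 CPM with overlapping libraries (-1.24 ± 0.52, adjusted p = 0.197, edgeR).

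Hmgcs1 (0.27 ± 0.38), Sqle (0.41 ± 0.67) and Srebf2 (-0.38 ± 0.50) had log2 differences smaller than their standard errors in Ezh2 ECKO. Sqle was spread widely there, at 24.4, 8.14 and 3.49 CPM. Of the 8 members, 2 were higher and 3 were lower at an unadjusted p-value under 0.05, which 8.51% and 10.7% of all genes reached in those directions. Without overlap between the groups, 2 members were higher and 1 was lower, when 13.6% and 15.3% of all genes met the same condition. The median log2 difference of the 8 was -0.05.

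**Figure D4:**
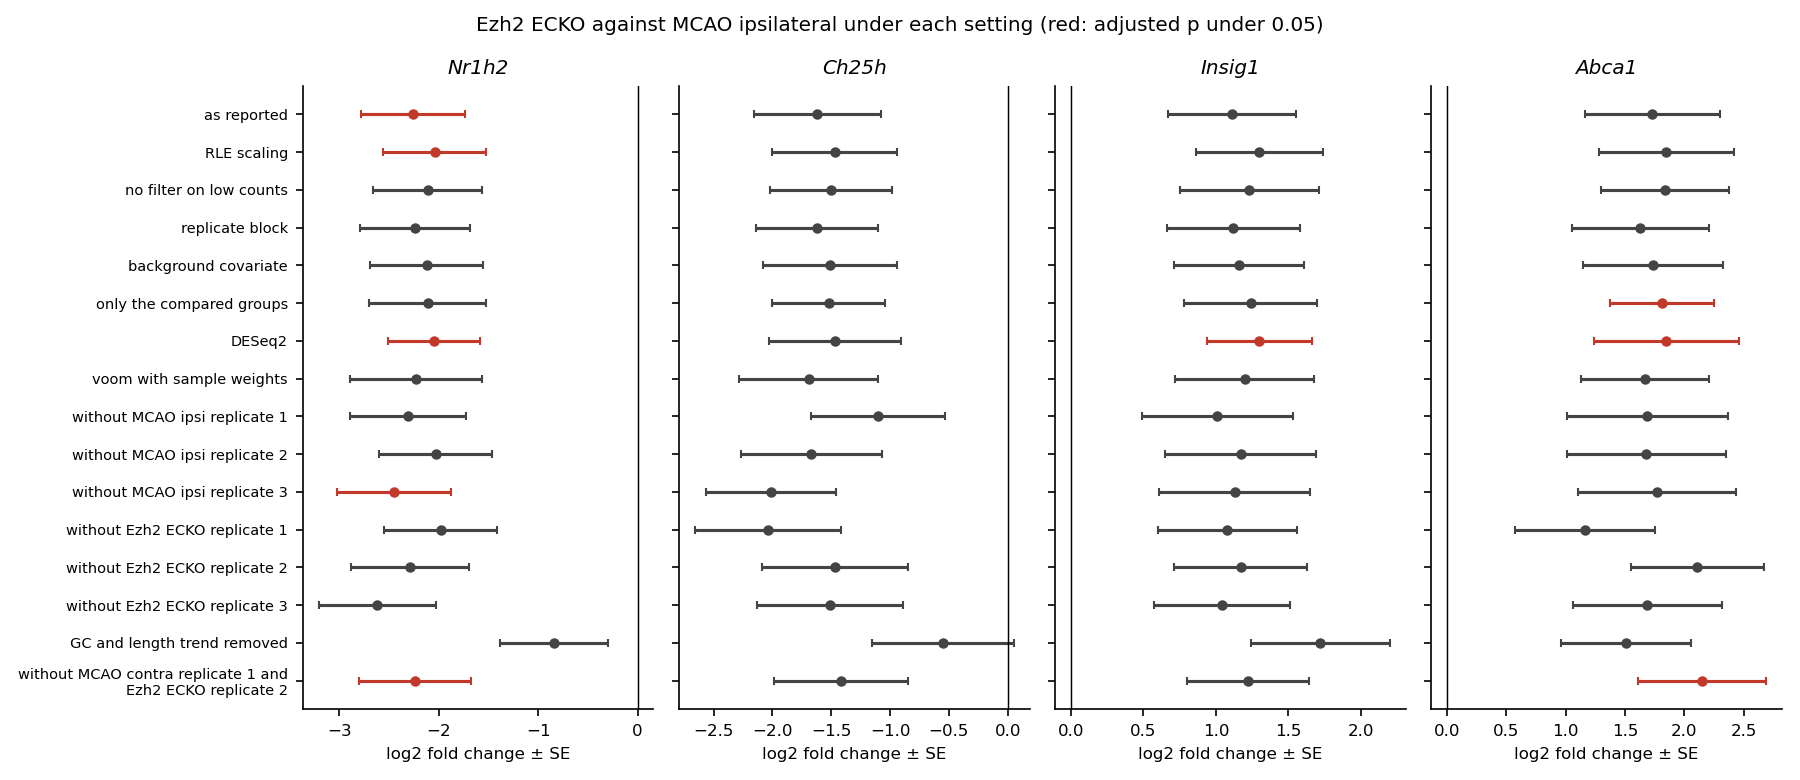
Log2 fold change (x axis, error bars SE) of 4 genes in Ezh2 ECKO against MCAO ipsilateral cells under each setting of the analysis; red marks an adjusted p-value under 0.05. The sign of each gene is the same in every setting shown, and Nr1h2 moves from -2.26 to -0.84 when the GC and length trends are removed. The median of all tested genes moves from 0.17 to 0.53 with that removal.

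In the libraries labelled Hdac2 ECKO, Insig1 showed the clearest separation from MCAO ipsilateral cells. Its level was 25.3, 24.4 and 29.1 CPM, more than any of the sham and wild-type MCAO libraries, whose highest was 22.8 CPM; 0.696% of all genes met that condition. The log2 difference from MCAO ipsilateral cells was 1.37 ± 0.44 (SE, unadjusted p = 0.00531, adjusted p = 0.394, edgeR), which was not called, although DESeq2 gave an adjusted p of 0.0116. With the GC and length trends removed, Insig1 had a larger value here (1.79 ± 0.48) and in Ezh2 ECKO (1.72 ± 0.48, adjusted p = 0.0640, edgeR). The median of all genes also rose, from 0.11 to 0.31 here and from 0.17 to 0.53 in Ezh2 ECKO, so the rise is partly shared. Nr1h2 was at 14.1, 12.5 and 7.82 CPM, below all MCAO ipsilateral libraries (-0.97 ± 0.50, adjusted p = 0.539, edgeR), and -0.22 ± 0.54 with those trends removed. Srebf2 was at 7.67 to 10.6 CPM against 14.6 to 15.5 CPM, also without overlap (-0.68 ± 0.50, adjusted p = 0.691, edgeR). Marker sums differed from MCAO ipsilateral cells here too, each with overlap. Microglial and macrophage markers were at 1.48 to 8.83 against 8.46 to 23.5 CPM. Pericyte and smooth muscle markers were at 4.13 to 16.3 against 14.8 to 61.0 CPM, and red cell markers at 54100 to 199000 against 37800 to 57800 CPM. Their part in these values was not tested.

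Ch25h was at 46.7, 62.3 and 28.8 CPM in Hdac2 ECKO, inside the range of MCAO ipsilateral cells but for its lowest library (-0.68 ± 0.53, adjusted p = 0.707, edgeR). All 3 values lay above all 6 sham libraries, and the log2 difference from sham ipsilateral cells was 2.35 ± 0.55. The same difference was 1.40 ± 0.53 for Ezh2 ECKO, whose 3 libraries were also above all sham libraries. Of all genes, 2.26% lay above all sham libraries in Hdac2 ECKO and 2.90% in Ezh2 ECKO. The sham libraries helped to choose Ch25h as low there, so these differences are not independent observations. Against sham ipsilateral cells no member was called in either deletion, where 0% of all genes were called for Hdac2 ECKO and 0.0410% for Ezh2 ECKO. Abca1 spread from 25.5 to 170 CPM in Hdac2 ECKO (1.00 ± 0.56 against MCAO ipsilateral cells, adjusted p = 0.573, edgeR), and Idi1 from 21.9 to 98.1 CPM (0.38 ± 0.51). Hmgcs1 (0.32 ± 0.38) and Sqle (0.07 ± 0.67) had values within their standard errors. None of the 8 genes was called against MCAO ipsilateral cells, where 0.0117% of all genes were. At an unadjusted p-value under 0.05, 1 member was higher and 0 were lower, against 4.61% and 5.24% of all genes. Without overlap, 1 was higher and 2 were lower, against 9.54% and 10.3% of all genes.

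The deletions were also compared with each other, a contrast that uses no library of the occlusion comparison. Idi1 was at 21.9, 71.0 and 98.1 CPM in Hdac2 ECKO and 19.8, 31.1 and 11.2 CPM in Ezh2 ECKO, overlapping in 1 library of the former (log2 difference 1.62 ± 0.52, SE, adjusted p = 0.238, edgeR). Nr1h2 was higher in each Hdac2 ECKO library than in each Ezh2 ECKO library (1.29 ± 0.51, adjusted p = 0.334, edgeR). Insig1 was close in both, with a difference of 0.25 ± 0.43 but no overlap, and 6.87% of all genes were higher without overlap, and Ch25h differed by 0.95 ± 0.53 (adjusted p = 0.532, edgeR). Of the 8 members 0 were called and 2 had an unadjusted p-value under 0.05, against 0.123% and 11.2% of all genes. Red cell markers, at 54100 to 199000 CPM in Hdac2 ECKO and 93.2 to 653 CPM in Ezh2 ECKO, also set these groups apart, and their part in the members' values was not tested.

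Beyond the 8 members, 43 other genes of cholesterol synthesis, sterol sensing, oxysterol metabolism and cholesterol transport were listed, of which 41 were tested. None of the 41 was called in any comparison, although some alternatives called Apoe or Mylip, among others. For occlusion over both sides, 3 were higher and 2 lower at an unadjusted p-value under 0.05, against 5.52% and 3.57% of all genes, and the median log2 difference was 0.07, near the 0.06 of all genes. The genes higher were Apoe, the apolipoprotein that takes up exported cholesterol (1.28 ± 0.40, SE), Msmo1, a sterol methyl oxidase (0.79 ± 0.31), and Insig2, the second Insig protein (0.53 ± 0.24). The genes lower were Mylip, the LXR-induced ligase that degrades the LDL receptor (-0.92 ± 0.36), and Cyp7b1, an oxysterol hydroxylase that was at or under the floor of 3 counts in 3 of the 6 occluded libraries. Mbtps1, a protease that activates SREBPs, came next (-0.67 ± 0.38). Apoe was at 109 to 462 CPM in sham and at 558, 694 and 757 CPM in MCAO ipsilateral cells, while MCAO contralateral cells held 148, 640 and 1210 CPM. Its low library there, replicate 1, was 1 of the 2 with the highest diffuse background.

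**Figure D5:**
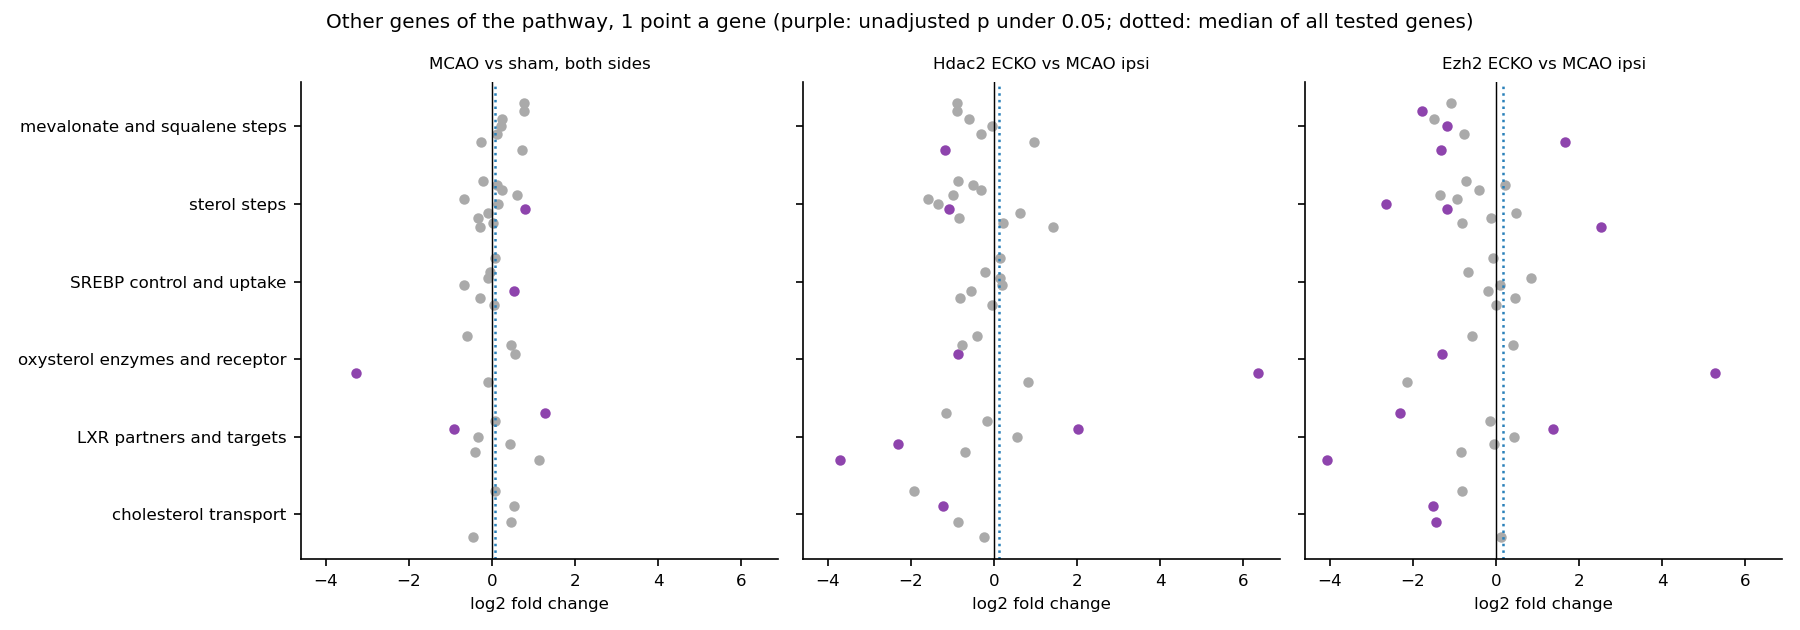
Log2 fold change (x axis) of the 41 other tested genes of the pathway, 1 point a gene, in 6 functional groups (rows) and 3 comparisons (panels); purple marks an unadjusted p-value under 0.05 and the dotted line is the median of all tested genes. In Ezh2 ECKO 29 of the 41 points lie below 0, a count that was 21 with GC and length trends removed.

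The listed genes had more negative than positive values in both deletions. In Ezh2 ECKO 29 of 41 had a negative log2 difference and the median was -0.68, against 0.17 over all genes, with 4 higher and 10 lower at an unadjusted p-value under 0.05 (8.51% and 10.7% of all genes). In Hdac2 ECKO it was 30 of 41 with a median of -0.55, against 0.11 over all genes, with 2 higher and 6 lower (4.61% and 5.24% of all genes). Both comparisons share the MCAO ipsilateral libraries. In Ezh2 ECKO the count of negative values was 23 of 41 with RLE scaling, where the list median was -0.45 and that of all genes 0.36, a change of scale that moves all genes alike. It was 21 of 41 (median -0.02, all genes 0.53) with GC and length trends removed. In Hdac2 ECKO the same settings gave 29 and 25 of 41.

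Among the single genes of the list, Lss, the lanosterol synthase, was at 20.5, 11.4 and 6.09 CPM in Ezh2 ECKO against 1.72 to 3.06 CPM (2.53 ± 0.93, SE, adjusted p = 0.144, edgeR). Apoe was at 190, 65.5 and 149 CPM in Ezh2 ECKO, below 558 to 757 CPM in MCAO ipsilateral cells (-2.31 ± 0.59, adjusted p = 0.0505, edgeR), and its difference was -0.81 ± 0.31 with GC and length trends removed. Scarb1, a receptor for high-density lipoprotein, was at 22.8, 18.3 and 27.3 CPM against 47.3 to 98.9 CPM (-1.51 ± 0.41, adjusted p = 0.0590, edgeR), and at 24.6, 37.7 and 19.7 CPM in Hdac2 ECKO (-1.24 ± 0.40, adjusted p = 0.394, edgeR). In Ezh2 ECKO none of these 3 genes overlapped the MCAO ipsilateral libraries (13.6% of all genes were higher and 15.3% lower in that way), while Lss overlapped them in Hdac2 ECKO. Hsd3b7, which acts downstream of Ch25h in oxysterol metabolism, was at 33.7, 13.7 and 18.2 CPM in Ezh2 ECKO against 34.1 to 65.4 CPM (-1.31 ± 0.42, adjusted p = 0.104, edgeR), with -0.26 ± 0.42 once those trends were removed. For Apoe and Hsd3b7 alike, the median of all genes in that setting was 0.53. Mylip was at 49.0, 30.0 and 73.8 CPM in Hdac2 ECKO and 37.7, 12.5 and 46.6 CPM in Ezh2 ECKO, against 6.84, 11.2 and 19.4 CPM in MCAO ipsilateral cells. Its log2 differences were 2.03 ± 0.53 (adjusted p = 0.273, edgeR) and 1.37 ± 0.52 (adjusted p = 0.157, edgeR).

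The list also held the paralogue of LXR-beta and the retinoid X receptors with which LXRs pair. Nr1h3, which encodes LXR-alpha, was at 1.64, 13.4 and 1.65 CPM in MCAO ipsilateral cells, at 1.12, 0.0602 and 0.0882 CPM in Hdac2 ECKO and at 0.755, 0.114 and 0.112 CPM in Ezh2 ECKO. The Hdac2 ECKO libraries 2 and 3 lie at or under the floor of 3 counts, and the Ezh2 ECKO libraries 2 and 3 lie just above it at 4 counts each. Rxra was at 4.70 to 7.50 CPM in MCAO ipsilateral cells, 2.26 to 5.55 CPM in Hdac2 ECKO and 1.29 to 5.48 CPM in Ezh2 ECKO, with overlap. Rxrb was at 1.69 to 2.76 CPM in Hdac2 ECKO against 10.4 to 12.6 CPM in MCAO ipsilateral cells (-2.32 ± 0.81, SE, adjusted p = 0.410, edgeR). Cyp7b1 was at 0 in Hdac2 ECKO replicates 1 and 2 and at 8.29 CPM in replicate 3. Gpr183, the receptor through which hydroxylated derivatives of the Ch25h product guide immune cells, stayed between 0 and 0.753 CPM in all 18 libraries, and Cyp27a1, another oxysterol-forming enzyme, between 0 and 2.41 CPM.

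Genes whose pattern was most like that of Ch25h were sought by Pearson correlation of log2(CPM + 1) over the 18 libraries, among the 7813 genes whose mean level reached 10 CPM. The 5 closest were Galnt15 (0.811), Procr (0.809), Gng10 (0.799), Gm20503 (0.796) and Cebpd (0.790). Gng10 and Gm20503 overlap and had nearly the same values, so they cannot be counted as separate genes. Galnt15, a glycosyltransferase, was at 29.3 to 47.5 CPM in sham and 48.3 to 135 CPM after MCAO. Procr, the endothelial protein C receptor, was at 6.31 to 16.8 CPM in sham and 19.2 to 38.0 CPM after MCAO. Cebpd, a transcription factor of acute inflammation, was at 20.7 to 38.5 CPM in sham and 44.6 to 108 CPM after MCAO. Because these genes were picked for likeness to Ch25h over these same libraries, their sham and MCAO values are not independent observations. With each group mean removed, the correlations of these genes with Ch25h were between 0.348 and 0.510, lower than over all libraries. All these correlations are descriptions over libraries that differ in depth and group. The Pearson r of Ch25h with the other 7 members over the same libraries ran from -0.30 with Hmgcs1 to 0.36 with Nr1h2. Among the other 7, the largest values were -0.66 between Nr1h2 and Abca1 and -0.63 between Insig1 and Nr1h2.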

How the data were processed

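The deposited values were whole-number counts per gene for 18 libraries. The name of the table describes normalized values, but low counts (1 to 20) were even in 77.3% to 89.4% of cases, which points to both mates being counted with no later scaling. The values were used as unscaled counts. FastQC, cutadapt, STAR, featureCounts, DESeq2 and the build mm10 are named, without roles, per the submitters' processing notes. The deposited table's columns all had a sample (0 were left out), and groups and replicate numbers came from the titles.

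All comparisons came from a single fit of 6 group means to the 18 libraries with edgeR 4.0.16 (R 4.3.3), TMM scaling and the quasi-likelihood F-test, which pools the spread over groups. Genes with at least 10 counts in at least 3 libraries were tested, p-values were adjusted by Benjamini-Hochberg over all 17094 of them, and an adjusted p under 0.05 made a call. The SE is the log2 fold change divided by the square root of F. CPM uses the TMM-scaled totals, except for marker sums and the diffuse background, which use the unscaled totals. The fit was tested on simulated counts. The counts have no molecular identifiers, so floors of 3 counts cover counting error only.

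Named were the 8 members, called genes of the pathway list or otherwise up to 3 higher and 3 lower by smallest unadjusted p in 3 comparisons, and the 5 genes most like Ch25h; some genes of the pathway list are not reported here. Acat2, Gpr183 and Cyp27a1 were named after their values were seen, and Rxra was also named outside this rule. The members and lists were chosen with earlier results of these data known. Same-numbered libraries did not consistently deviate together (see the closing section), and the numbers were not used as pairs. Alternatives were RLE scaling, no filter, a replicate block, a background covariate, only the compared groups, DESeq2 1.42.0, voom with sample weights (limma 3.58.1), each library left out and, added after the values were seen, removal of GC and length trends and omission of the 2 libraries that stood apart.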

Additional observations from a re-analysis of the deposited data

How the results depend on the processing

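Of 230 recounts of called genes, 198 gave the reported count and 32 did not. Every reported count was 0 or 1, so the tally largely records that 0 stayed 0. The Nr1h2 call in Ezh2 ECKO was kept in only 4 of 15 alternatives. No called gene changed sign. For MCAO against sham on the ipsilateral side, 1 member was called in place of 0, Ch25h, when only the compared groups were fitted, with DESeq2, with voom and without the 2 libraries that stood apart (MCAO contralateral replicate 1 and Ezh2 ECKO replicate 2); leaving out each library gave 0. On the contralateral side DESeq2 called 1. Over both sides the left-out range was 0 to 1, with 0 without sham contralateral replicate 1. The pathway list went from 0 to 4 genes with voom (Acat2, Hsd3b7, Mylip, Apoe) and to 1 (Apoe) without MCAO contralateral replicate 1 or without both libraries, a left-out range of 0 to 1. For Hdac2 ECKO against MCAO ipsilateral cells DESeq2 called 1 member (Insig1) and 1 pathway gene (Mylip), which was also the 1 called without both libraries; single omissions gave 0. For Ezh2 ECKO the 1 member became 0 with no filter, with the background covariate, with voom and with GC and length trends removed, 3 with DESeq2 (Nr1h2, Insig1, Abca1) and 2 without both libraries (Nr1h2, Abca1), with a left-out range of 0 to 1. When only the compared groups were fitted, the 1 called was Abca1 (adjusted p = 0.0490, edgeR) and not Nr1h2 (0.0707). The pathway list there had 2 called genes with RLE (Apoe among them), 1 (Apoe) with no filter, with only the compared groups and with voom, 7 with DESeq2 and 5 without both libraries, against 0 reported; single omissions gave 0. Against sham ipsilateral cells DESeq2 and voom each called 1 member in Hdac2 ECKO. RLE scaling moved the median log2 difference of all genes from 0.17 to 0.36 in Ezh2 ECKO, and the 8 members had the same signs there. Over all genes the calls in Ezh2 ECKO numbered 250, against 5 without MCAO ipsilateral replicate 1 or 2 and 1617 with DESeq2; over both sides they numbered 26, against 0 without sham contralateral replicate 1 and 2199 with voom. Calls of Ch25h in the occlusion comparisons, which chose it, support nothing and are listed only as counts. Each member had 76 counts or more in every library, and no value smaller than its SE can be read as no change.

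Same-numbered libraries of different groups did not consistently deviate together (correlations of -0.26 to 0.33, with no comparison where all 3 pairs passed 0.1). Between the 2 sides, 2 of 3 pairs passed 0.1 in sham (-0.07 to 0.25) and in MCAO (-0.02 to 0.30). The same 2 of 3 passed between Ezh2 ECKO and sham ipsilateral libraries (0.06 to 0.23), which differ in genotype. Whether the sides share mice thus could not be settled, and the numbers were not treated as pairs. With the block, 0 members were called in Ezh2 ECKO (Nr1h2 log2 difference -2.24 ± 0.55, adjusted p = 0.0668, edgeR), and 12 genes in all against 250. With the sides of a number summed, Ch25h had a log2 difference of 2.72.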
